A study of Sus scrofa with 70 samples.

Results

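Sperm and the germ cells that form them carry their own versions of several glycolysis enzymes, and 9 genes of these steps were followed here through 5 reproductive glands of the boar. They are PGK1 and PGK2, GAPDH and GAPDHS, LDHA, LDHB and LDHC, and ENO1 and ENO4. The 9 genes were chosen by name, as testis forms and their somatic relatives, out of 16397 gene symbols in the deposited annotation. The level of a gene was the sum of its transcripts in TPM, a unit scaled for transcript length and for the total of each library, so that levels of different genes can be compared. Fold changes are differences on the scale of log2(TPM + 1), which understates the change of genes with low levels.

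Glycolysis splits glucose into pyruvate, and lactate dehydrogenase turns pyruvate into lactate and back. Glyceraldehyde-3-phosphate dehydrogenase (GAPDH in most cells, GAPDHS in spermatids and sperm), phosphoglycerate kinase (PGK1 and PGK2) and enolase (ENO1 and ENO4) act in this order in the lower part of the pathway, and lactate dehydrogenase is a tetramer built from A, B and C subunits (LDHA, LDHB and LDHC). The testis forms are switched on during the meiotic and later stages of sperm formation, PGK1 is X-linked while PGK2 is an intronless autosomal gene, and the sperm tail uses this pathway for motility.

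RNA-seq was made on adult boars aged 12 months, with 3 libraries for each of 5 glands in each of 2 breeds, 30 in all: testis, epididymis, and the accessory glands, which are the vesicular, prostate and bulbourethral glands. The first breed was BMI, an inbred line of Banna mini-pigs that descends from the other, DSE (Diannan small-ear pigs), and the labels name no treatment. In addition, 1 PacBio Iso-seq library, which reads transcripts from end to end, was made for each gland and breed, and the deposited isoforms, all with at least 2 exons, held 231413 to 458697 full-length reads in the 10 libraries. The labels do not say whether the 3 libraries of a group came from separate animals, so p-values measure only the spread between these libraries, which may be technical. In whole glands, fewer cells of a type and less RNA per cell cannot be told apart.

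The testis libraries carried germ cell and Leydig cell markers, the epididymis libraries those of their epithelium, and 1 testis library stood apart. No marker particular to 1 accessory gland was among the lists, and 4 markers of gland epithelium summed to 558 to 2056 TPM in those glands against 9.97 to 38.7 TPM in testis. The summed level of 7 spermatid and sperm markers was 25504 to 116790 TPM in testis, 1.52 to 1038 TPM in epididymis and at most 7.31 TPM in the other glands. DSE testis replicate 2 had the lowest of these testis sums, 32.1% of the median of the other 5 libraries, and 30.9% of their median for 4 spermatocyte markers. Its sum of 4 Leydig cell markers, at 63338 TPM, was 291% of the median of the other 5 testis libraries (18526 to 32256 TPM). The highest spermatid sum outside testis, 1038 TPM, was in BMI epididymis replicate 2, where the sum of 5 measured epididymal epithelium markers was also highest in the study, 29058 TPM. The lowest such sum in epididymis was 1105 TPM, and LCN6 alone ranged from 0.198 to 6126 TPM there. Of the Sertoli cell markers, SOX9 had a lower median in testis (15.9 TPM) than in the accessory glands (24.7 to 98.3 TPM). AMH had a median of 0.990 TPM in testis, and FATE1 (101 to 140 TPM) carried most of the Sertoli sum. The part of these cell types in the results was not tested, and values without DSE testis replicate 2 follow in the testis and breed comparisons.

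**Figure D1:**
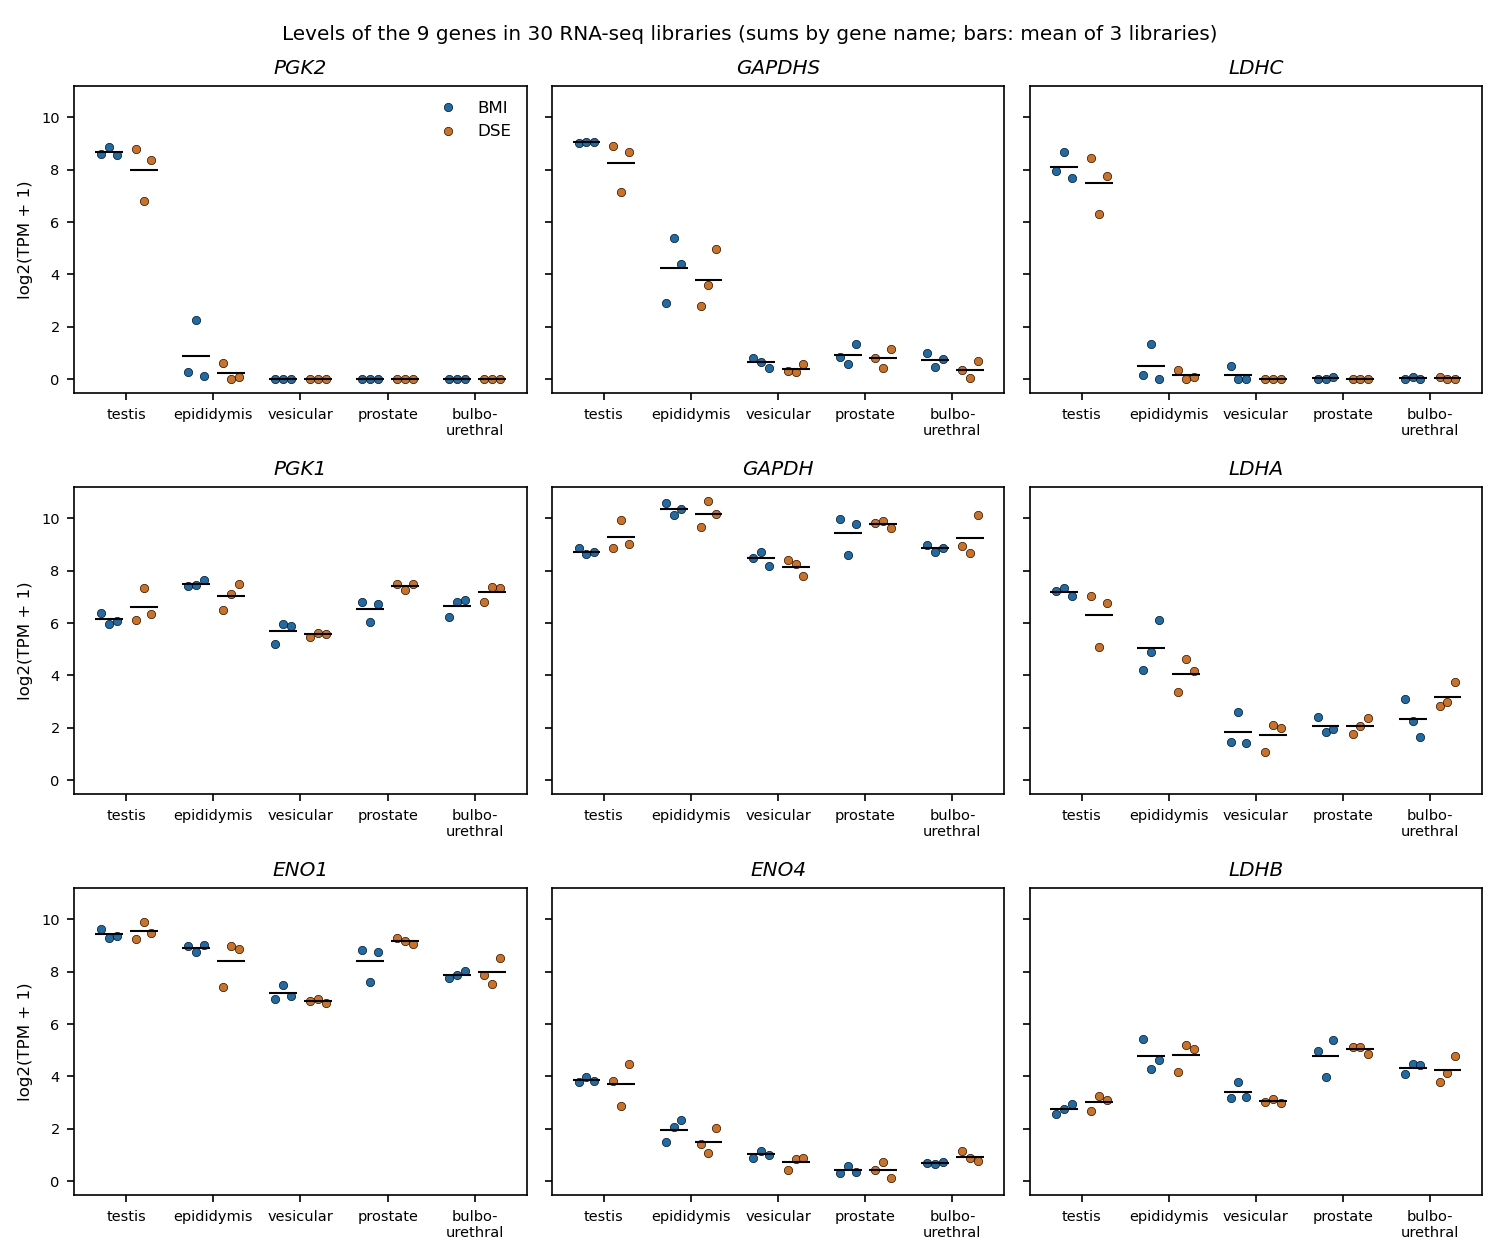
Level of each of the 9 genes, as log2(TPM + 1), in the 30 RNA-seq libraries by gland and breed, with transcripts summed by gene name; points are libraries and bars are means of 3. PGK2, GAPDHS and LDHC sit far higher in testis than in the accessory glands, and the lowest testis point of each is DSE replicate 2.

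The names in the annotation decided what could be measured, most of all for lactate dehydrogenase. The transcript named LDHB is an intronless copy on chromosome 2 (chr2:12988755-12990035, minus strand, Sscrofa11.1), whereas the gene with 8 exons at the place of RefSeq LDHB (ENSSSCG00000000576, chr5:51810943-51831216, plus strand) carries no name. Their coding sequences were identical at 997 of 1005 bases (99.2%), and 76.7% of the 31-base words of the copy also occur in the chromosome 5 transcript. The stretch around the first exon junction of the chromosome 5 gene shows how alike they are: the copy crosses the place of the junction without a break and differs, in capitals, at the last base only (coding positions 70 to 189; genome sequence from RefSeq, 5′ to 3′ along the gene).
LDHB copy, chr2:12989766-12989885, minus strand: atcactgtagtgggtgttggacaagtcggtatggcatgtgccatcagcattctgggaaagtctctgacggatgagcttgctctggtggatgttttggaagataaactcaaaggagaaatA
LDHB on chromosome 5, chr5:51814118-51821032, plus strand: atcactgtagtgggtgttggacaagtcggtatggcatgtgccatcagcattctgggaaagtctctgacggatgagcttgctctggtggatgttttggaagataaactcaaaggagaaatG

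Reads from these near-identical genes can be split between them, so the level of the named LDHB is uncertain, and both are given below. The named copy was at 8.02 to 11.9% of the level of the chromosome 5 gene in each of the 30 libraries (median 9.41%). LDHA had a related gap, since its Ensembl transcript (ENSSSCT00000062740) carries no gene name while its Iso-seq isoforms do, so that LDHA is given by name and by gene identifier. For PGK1, 10.6% of the 31-base words are shared with the neighbouring TAF9B, and for ENO4, 5.45% with HSPA12A. The leading testis transcripts of GAPDH, LDHA, LDHC and ENO1 shared no 31-base word with another annotated gene, and copies outside the annotation were not searched.

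PGK2, the phosphoglycerate kinase of germ cells, was measured in every testis library and in no accessory gland library. The gene has 1 exon (ENSSSCG00000001738, chr7:43839241-43840892, minus strand), and its coding sequence of 1254 bases matched that of PGK1 (ENSSSCG00000012440, chrX:62187434-62210705, plus strand) at 83.9% of positions, spread along the gene. Only 0.493% of the 31-base words of PGK2 also occur in other genes, all of them in PGK1 and some in 1 further gene. The first 120 coding bases of both genes, with the 22 differing bases in capitals, show how the differences are spread.
PGK2, chr7:43840650-43840769, minus strand: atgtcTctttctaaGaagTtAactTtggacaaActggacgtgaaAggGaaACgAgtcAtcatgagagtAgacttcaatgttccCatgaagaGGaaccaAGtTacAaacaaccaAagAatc
PGK1, chrX:62187558-62198314, plus strand, introns removed: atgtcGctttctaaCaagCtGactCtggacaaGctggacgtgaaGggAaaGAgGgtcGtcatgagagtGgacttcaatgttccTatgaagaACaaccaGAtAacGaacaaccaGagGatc

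In the BMI testes, PGK2 was at 383, 462 and 377 TPM, and in the DSE testes at 437, 110.1 and 333 TPM. All values except that of DSE replicate 2 lay above 330 TPM. In epididymis it ranged from 0 to 3.82 TPM (median 0.146), with the highest value in BMI replicate 2, and it was listed at 0 in all 18 libraries of the vesicular, prostate and bulbourethral glands. PGK2 was higher in testis than in the mean of the other 4 glands by 8.19 ± 0.23 (SE) on the log2(TPM + 1) scale (limma, adjusted p = 1.16e-20). It was chosen as a testis form and passed the filter of 1 TPM in 3 libraries through the testis libraries alone. The direction was thus set in advance, and the difference is a description.

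PGK1, the form of most other cells, did not pass the test between testis and the other glands. Its testis levels were 82.2, 61.9 and 66.3 TPM in BMI and 68.7, 163 and 80.9 TPM in DSE. DSE replicate 2 was the highest of the 6, at 237% of the median of the others. Across glands, its median level ran from epididymis (172 TPM) through prostate gland (131 TPM), bulbourethral gland (114 TPM) and testis (74.8 TPM) to vesicular gland (47.8 TPM). The testis level differed from the mean of the other glands by -0.31 ± 0.16 in log2(TPM + 1) (limma, adjusted p = 0.083), with a 95% interval from -0.65 to 0.02. Neighbours in the order from epididymis to bulbourethral gland did not differ beyond their spread: the adjusted p was 0.27 between epididymis and prostate gland and 0.963 between prostate and bulbourethral glands. Differences of -0.53 between testis and bulbourethral gland (adjusted p = 0.0265) and of 0.75 between testis and vesicular gland (adjusted p = 0.00214) were below the fold of 2 required for a call.

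As a share of both genes, PGK2 made up 77.1% ± 18.2 of phosphoglycerate kinase TPM in testis (SD, n = 6). The ratio of PGK2 to PGK1 was 5.93 ± 1.42 in BMI testis (SD, n = 3) and 3.72 ± 2.86 in DSE testis (SD, n = 3), where it was 0.677 in replicate 2. Outside testis the share was at most 2.13%, reached in BMI epididymis replicate 2. Together both genes summed to 437 ± 90.0 TPM in testis (SD, n = 6), against 158 ± 39.2 TPM in epididymis and 49.1 ± 9.29 TPM in vesicular gland.

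GAPDHS (ENSSSCG00000002888, chr6:44966061-44979166, plus strand), which is bound to the fibrous sheath of the sperm tail, stood in testis at about the level of the housekeeping GAPDH. In BMI testis it was at 522, 536 and 537 TPM, and in DSE testis at 482, 143 and 411 TPM. The 3 BMI values lay above all 3 DSE values. In epididymis GAPDHS was at 5.91 to 40.9 TPM (median 15.5), and it was between 0.0261 and 1.53 TPM in the accessory glands, without overlap between testis, epididymis and accessory glands. The difference of testis from the other 4 glands was 7.18 ± 0.28 in log2(TPM + 1) (limma, adjusted p = 8.53e-18). The coding sequences of GAPDHS and GAPDH matched at 71.8% of 948 aligned bases, and GAPDHS shared 5.04% of its 31-base words with SBSN, which runs on the opposite strand at its upstream end. The Ensembl transcript used for this match, with 1164 coding bases, averaged 0.698 TPM in testis. The isoforms that carried the testis level have shorter annotated coding sequences, such as 627 bases in PB.15566.16 and PB.15566.8 and 834 bases in PB.15566.13. Whether they make the full enzyme was not tested.

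GAPDH (ENSSSCG00000000694, chr5:64129677-64134928, minus strand) had testis levels of 464, 395 and 419 TPM in BMI and 471, 986 and 520 TPM in DSE. DSE replicate 2 was again the highest of the 6. Its median level was 1238 TPM in epididymis, 889 TPM in prostate gland, 482 TPM in bulbourethral gland, 467 TPM in testis and 321 TPM in vesicular gland. The testis level differed from the mean of the other glands by -0.30 ± 0.20 in log2(TPM + 1) and did not pass the test (limma, adjusted p = 0.162, 95% interval -0.71 to 0.10). Testis and bulbourethral gland, neighbours in this order, differed by -0.05 (adjusted p = 0.878), and epididymis and prostate gland by 0.64 (adjusted p = 0.038), below the fold of 2.

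The GAPDHS share of both genes was 55.6% ± 2.38 in BMI testis (SD, n = 3), a ratio of 1.26 ± 0.118 to GAPDH. In DSE testis the share was 35.8% ± 20.3 (SD, n = 3), a ratio of 0.653 ± 0.456, with 50.6, 12.6 and 44.1% in its libraries. In epididymis the share was 1.56% ± 1.23 (SD, n = 6), and in the accessory glands at most 0.223%. The sum of both genes in testis, 981 ± 75.2 TPM (SD, n = 6), varied less between libraries than either gene did, and was 1279 ± 292 TPM in epididymis and 322 ± 68.4 TPM in vesicular gland.

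**Figure D2:**
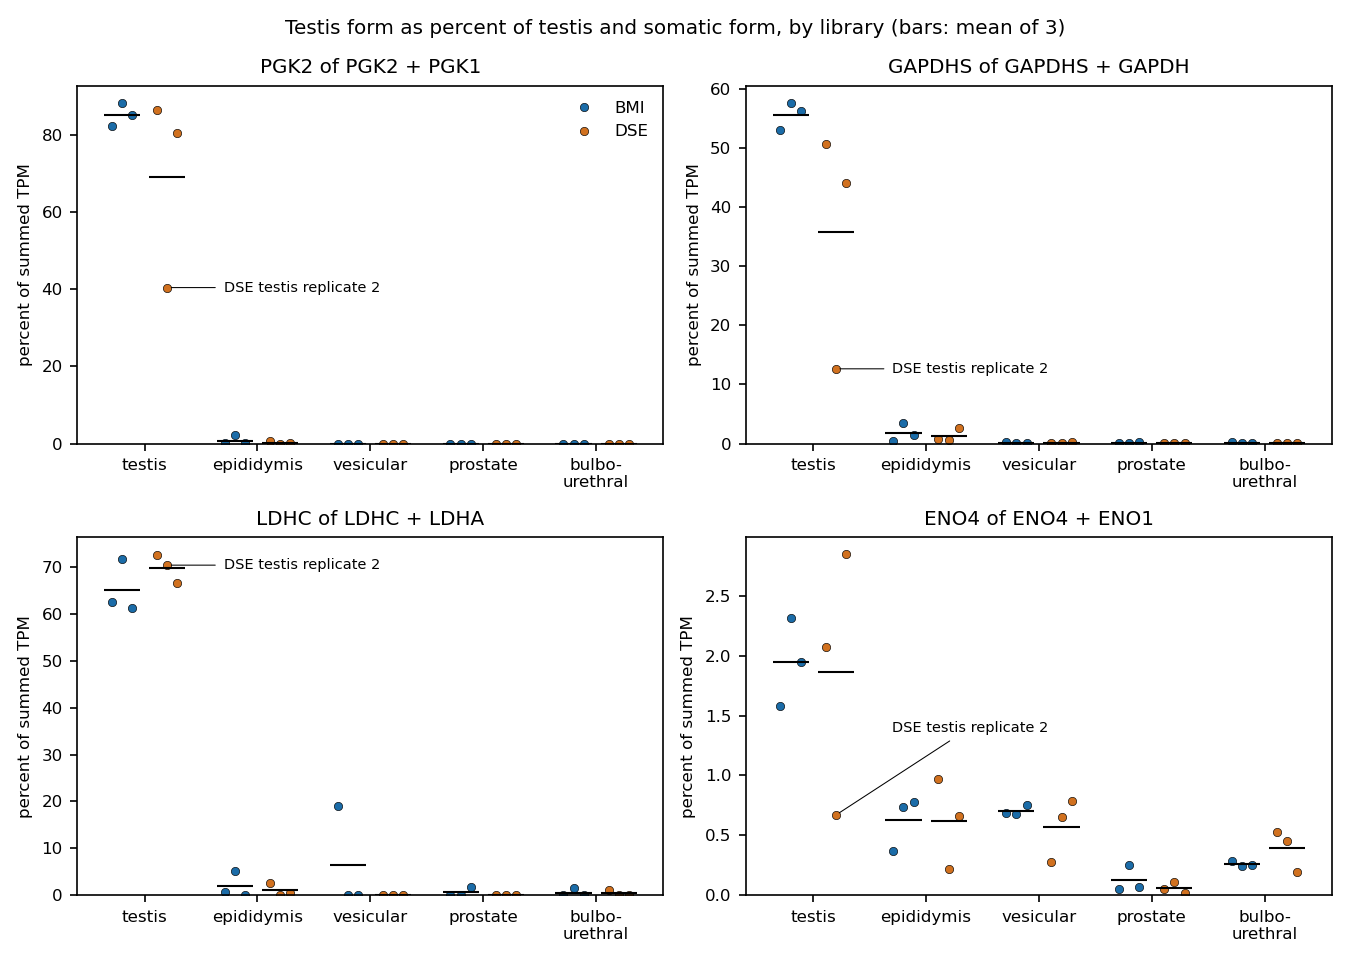
Percent of summed TPM held by the testis form of each pair (PGK2, GAPDHS, LDHC by gene name, ENO4), by gland and breed; points are libraries, bars are means of 3, and each panel has its own percent axis. In DSE testis replicate 2 the share is 40.4% for PGK2 and 12.6% for GAPDHS, below every other testis library, while for LDHC by name it is 70.5%, inside their range. With LDHA summed by gene identifier, which is not plotted, the LDHC share there is 47.1%, below the 57.3 to 69.9% of the other 5.

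LDHC, the lactate dehydrogenase subunit of spermatocytes, spermatids and sperm, was near 0 outside testis. It lies beside LDHA on chromosome 2 (ENSSSCG00000013363, chr2:40748856-40809930, minus strand; LDHA, ENSSSCG00000013366, chr2:40814126-40825369 for its named transcripts, same strand), and the 2 coding sequences of 999 bases matched at 76.8%. Its testis levels were 247, 408 and 204 TPM in BMI and 349, 77.8 and 217 TPM in DSE, with the lowest value in DSE replicate 2. The highest value elsewhere was 1.51 TPM, in BMI epididymis replicate 2, and it was listed at 0 in 2 of 6 epididymis libraries. The difference of testis from the other glands was 7.69 ± 0.21 in log2(TPM + 1) (limma, adjusted p = 5.91e-21). As for PGK2, LDHC passed the filter through the testis libraries alone, so this difference is a description.

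LDHA, the subunit of muscle and of many dividing cells, was itself higher in testis when summed by name. By name it was at 147, 161 and 128 TPM in BMI testis and 131, 32.6 and 108 TPM in DSE testis, against 9.36 to 68.6 TPM in epididymis (median 20.7) and 1.09 to 12.4 TPM in the accessory glands. DSE testis replicate 2 alone lay inside the epididymis range. The difference was 3.95 ± 0.28 in log2(TPM + 1) (limma, adjusted p = 2.05e-12). By gene identifier, with the unnamed Ensembl transcript included, the epididymis held the highest levels, 27.9 to 402 TPM (median 284), with a median above that of testis, which ranged from 87.3 to 183 TPM (median 151). The difference of testis from the other 4 glands was then 1.31 ± 0.29 (limma, adjusted p = 2.75e-04), and that from epididymis alone was -0.46 ± 0.37 and did not pass the test (adjusted p = 0.269). The order below these was bulbourethral gland (median 55.8 TPM), prostate gland (50.0 TPM) and vesicular gland (18.7 TPM), of which bulbourethral and prostate glands did not differ beyond their spread (adjusted p = 0.513).

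LDHB, the heart-type subunit, was the only one of the 9 genes that was lower in testis under the test. The named copy was at 4.92, 5.78 and 6.66 TPM in BMI testis and 5.36, 8.56 and 7.52 TPM in DSE testis, a difference from the other glands of -1.42 ± 0.19 in log2(TPM + 1) (limma, adjusted p = 2.15e-07). The chromosome 5 gene was at 48.3, 57.6 and 59.5 TPM in BMI testis and at 61.6, 106.7 and 70.8 TPM in DSE testis, with a difference of -1.56 ± 0.20 (limma, adjusted p = 8.91e-08). It was highest in prostate gland (158 to 409 TPM, median 356) and epididymis (174 to 414 TPM, median 306), whose levels did not differ beyond their spread (adjusted p = 0.598), and then came bulbourethral gland (108 to 266 TPM), vesicular gland (77.8 to 136 TPM) and testis. Vesicular gland and testis differed by 0.47 in the direction of higher vesicular gland, which did not pass the test (adjusted p = 0.0973).

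By gene name, LDHC made up 67.6% ± 4.81 of LDHC and LDHA TPM in testis (SD, n = 6), a ratio of 1.93 ± 0.521 in BMI and 2.35 ± 0.334 in DSE (SD, n = 3 each). With LDHA summed by identifier the share was 60.8% ± 8.37, and 51.3% when the chromosome 5 LDHB was added to the denominator. Outside testis the share by name reached 18.9% in BMI vesicular gland replicate 1, where LDHC was at 0.414 TPM and LDHA by name at 1.77 TPM. It was at most 5.07% in all other libraries outside testis. Among the A and B subunits, chromosome 5 LDHB made up 32.2% ± 12.0 of LDHA (by identifier) and LDHB in testis (SD, n = 6), against 75.3% ± 14.7 in the other 24 libraries (2-sided exact permutation test, p = 1.18e-05). In epididymis it made up 57.2% ± 17.3 (SD, n = 6), against 81.3% ± 6.99 in the 18 accessory gland libraries (exact permutation test, p = 3.12e-04), and the ranges overlapped in both comparisons. By gene name the shares were 7.14% in testis and 74.1% elsewhere (exact permutation p = 1.68e-06, the smallest this design can give).

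ENO1 (ENSSSCG00000022343, chr6:69385876-69401622, minus strand), the enolase of most tissues, was higher in testis than in the mean of the other glands. It was at 793, 629 and 663 TPM in BMI testis and 615, 949.5 and 715 TPM in DSE testis, above the 168 to 517 TPM in epididymis and overlapping the 192 to 626 TPM in prostate gland. The difference was 1.39 ± 0.18 in log2(TPM + 1) (limma, adjusted p = 2.35e-07). With Ensembl transcripts alone it turned to -0.54 ± 0.22 (adjusted p = 0.0339), since an Iso-seq isoform described below carried most of the testis level. The medians ran from testis (689 TPM) through prostate gland (494 TPM), epididymis (483 TPM) and bulbourethral gland (233 TPM) to vesicular gland (109.9 to 177 TPM over its 6 libraries), and prostate gland and epididymis did not differ beyond their spread (adjusted p = 0.734).

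ENO4 (ENSSSCG00000010664, chr14:127036960-127067024, plus strand), an enolase of the sperm tail, was a minor form in every gland. In testis it was at 12.7, 14.9 and 13.2 TPM in BMI and 13.0, 6.38 and 20.9 TPM in DSE, against 1.10 to 4.03 TPM in epididymis and at most 1.24 TPM elsewhere, with no overlap of testis and the other glands. The difference was 2.83 ± 0.17 in log2(TPM + 1) (limma, adjusted p = 6.81e-14). Its share of ENO4 and ENO1 in testis was 1.91% ± 0.738 (SD, n = 6), a ratio of 0.0199 ± 0.00384 in BMI and 0.0191 ± 0.0114 in DSE (SD, n = 3 each). The share was 9.81% with Ensembl transcripts alone, which leave out the leading testis isoform of ENO1, and 11.5% of Iso-seq reads. In epididymis the share was 0.619% ± 0.278, and in vesicular gland 0.638% ± 0.183 (SD, n = 6 each).

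Counted over the 9 genes by name, 6 were called higher in testis (PGK2, GAPDHS, LDHC, LDHA, ENO4 and ENO1) and 1 lower (LDHB), where a call needed an adjusted p below 0.05 and at least a 2-fold difference. Of the 19911 genes tested in this contrast, 34.5% were called higher and 12.7% lower, beside 6 of 9 and 1 of 9 here, and 4 of the 9 genes had been chosen as testis forms. Of these, PGK2 and LDHC passed the filter through the testis libraries alone and had to be higher there, so the count is a description. The median of all genes was itself 0.31 higher in testis on the log2 scale, and 0.13 higher after scaling the libraries by size factors. Under size factors, where 31.3% of all genes were called higher and 15.7% lower, the same 7 genes were called, and PGK1 and GAPDH, at -0.56 each, passed the adjusted p but not the 2-fold limit. Without DSE testis replicate 2 the same 7 were called as well, with differences of 8.48 for PGK2, 7.45 for GAPDHS and 7.996 for LDHC. With Ensembl transcripts alone 4 of the 9 were called, PGK2 (8.19), LDHC (4.79), ENO4 (1.67) and LDHB (-1.42), while ENO1 turned to -0.54 and GAPDHS and LDHA by name had no level that passed the filter. The share of all genes called in this setting is not given, so these 4 calls are a description. The GAPDHS share of both genes in testis was then 0.221%. Without DSE testis replicate 2, PGK1, at -0.50 (adjusted p = 0.00562), and GAPDH, at -0.47 (adjusted p = 0.0409), passed the adjusted p but not the 2-fold limit.

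**Figure D3:**
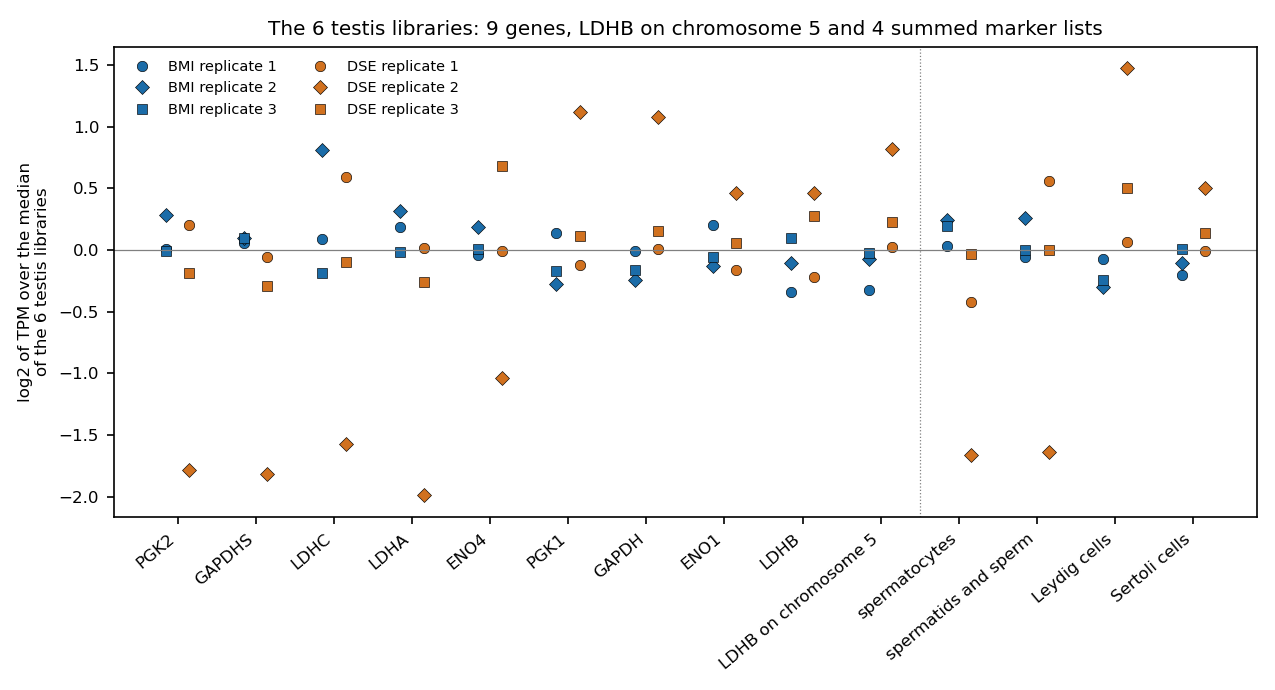
The 6 testis libraries: log2 of the TPM over the median of the 6 for the 9 genes by name, the chromosome 5 LDHB, and 4 summed marker lists to the right of the dotted line. DSE replicate 2 (orange diamond) is lowest for PGK2, GAPDHS, LDHC, LDHA and ENO4 and for both germ cell lists, and highest for PGK1, GAPDH, ENO1, both LDHB genes, Leydig cells and Sertoli cells.

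In DSE testis replicate 2 the testis forms were low and PGK1, GAPDH, ENO1 and LDHB high, whereas LDHA, the somatic relative of LDHC, was low with the testis forms. Against the median of the other 5 testis libraries, PGK2 stood at 28.8%, GAPDHS at 27.3%, LDHC at 31.5%, LDHA at 24.95% by name and 57.5% by gene identifier, and ENO4 at 48.4%. PGK1 stood at 237%, GAPDH at 213%, ENO1 at 143% and chromosome 5 LDHB at 179%. Spermatid markers were at 32.1% and Leydig cell markers at 291% in the same library.

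Between epididymis and the mean of the 3 accessory glands, 4 of the 9 genes were called higher and 0 lower, where 17.6% of all genes tested were called higher and 2.43% lower. These were GAPDHS (3.37 ± 0.29 in log2(TPM + 1), adjusted p = 1.07e-09), LDHA (2.37 ± 0.29, adjusted p = 3.09e-07), GAPDH (1.27 ± 0.20, adjusted p = 1.23e-05) and ENO4 (1.04 ± 0.18, adjusted p = 2.87e-05), all by limma. The median of all genes was 0.41 higher in epididymis and 0.03 after size factors, and with size factors, where 9.02% of all genes were called higher and 5.15% lower, GAPDH (0.66) and ENO4 (0.70) lost their calls. Markers of other cells also had higher medians in epididymis than in each accessory gland: 4 smooth muscle markers summed to a median of 3295 TPM (50.2 to 1291 TPM in the accessory glands), 3 red blood cell markers to 645 TPM (95.3 to 152 TPM) and 2 macrophage markers to 48.1 TPM (10.5 to 20.9 TPM), and their part in these calls was not tested. PGK1 (0.76), ENO1 (0.75) and LDHB (0.65) passed the adjusted p but stayed below the 2-fold limit, and PGK2 (0.55) and LDHC (0.27) passed neither. With a pseudocount of 0.1 in place of 1, PGK2 (1.83, adjusted p = 7.80e-04) and LDHC (1.03, adjusted p = 0.0448), both at low levels in epididymis, were called as well (limma). LDHA summed by identifier was also called, at 2.36 ± 0.30. DSE epididymis replicate 1 had the lowest epididymis level of PGK1 (89.3 TPM), GAPDH (809.8 TPM), LDHA by identifier (27.9 TPM) and ENO1 (168 TPM), and without it ENO1 was called at 1.01. The ENO4 call was lost without BMI epididymis replicate 3 (0.94) or DSE epididymis replicate 3 (0.90), and with Ensembl transcripts alone (0.74), where GAPDH (1.25) was the 1 gene of the 9 called.

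The epididymis level of GAPDHS came mostly from 1 isoform, PB.15566.1 (54.2 to 95.1% of it in the 6 libraries, median 83.6%), which opens with an exon of 146 bases upstream of the testis starts (chr6:44966061-44966206). It was at 3.51 to 38.3 TPM in epididymis (median 13.0), 0.360 to 2.85 TPM in testis and at most 0.195 TPM in the accessory glands. Without it, GAPDHS was at 1.03 to 3.05 TPM in epididymis and 0.0261 to 1.53 TPM in the accessory glands, which overlap. That exon lies within an exon of an SBSN transcript on the opposite strand, and as the strand setting of the counting is not given in the sources used here, reads of both cannot be told apart. SBSN itself was at 3.15 to 11.9 TPM in epididymis and at most 1.53 TPM in the accessory glands. Iso-seq held 2 full-length reads of PB.15566.1, both from DSE epididymis.

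Among the accessory glands, the vesicular gland held the lowest levels of the somatic forms. Gland epithelium markers also summed to a lower median there, 743 TPM against 1382 TPM in prostate and 1811 TPM in bulbourethral gland. Smooth muscle markers summed to medians of 1291 TPM in vesicular, 1060 TPM in prostate and 50.2 TPM in bulbourethral gland. The part of these cell types in the calls was not tested. Against prostate gland, 4 of 9 genes were called lower, where 11.3% of all genes tested were lower and 3.43% higher: ENO1 (-1.76 ± 0.23), LDHB (-1.68 ± 0.24), PGK1 (-1.35 ± 0.21) and GAPDH (-1.31 ± 0.25), in log2(TPM + 1). With a pseudocount of 0.1, ENO4, under 1 TPM on average in both glands, was called higher in vesicular gland. Against bulbourethral gland, 2 of 9 were called lower, PGK1 (-1.28 ± 0.21) and LDHB (-1.06 ± 0.24), with 23.6% of all genes lower and 4.13% higher. Between prostate and bulbourethral glands none of the 9 was called (limma), where 7.65% of all genes were, and the difference of ENO1 was 0.85 ± 0.23 (adjusted p = 0.0106), below the 2-fold limit. ENO1 was called there with size factors (1.14; 6.69% of all genes were then called), and ENO4, under 1 TPM on average in both glands, with a pseudocount of 0.1. The vesicular gland libraries had size factors of 0.385 to 0.953, against 0.753 to 1.65 in the other 24 libraries. After dividing by them only ENO1 (-1.18) and LDHB (-1.16) were called against prostate gland, where 5.49% of all genes were then lower and 6.6% higher, and 0 of the 9 against bulbourethral gland (7.62% lower and 8.82% higher), where PGK1 was at -0.42 (adjusted p = 0.1) and GAPDH turned to 0.11. The call of LDHB against bulbourethral gland was also lost without BMI vesicular gland replicate 1 (-0.9986) or DSE bulbourethral gland replicate 3 (-0.93), while ENO1 was called too without DSE bulbourethral gland replicate 2 (-1.02). LDHA by name was called there with a pseudocount of 0.1 (-1.23) and without any 1 of 7 libraries (-1.17 to -1.003), which were vesicular gland BMI replicate 2 and DSE replicates 2 and 3, and bulbourethral gland BMI replicates 2 and 3 and DSE replicates 1 and 2. Without BMI prostate gland replicate 2, ENO1 was called higher in prostate than in bulbourethral gland, at 1.05. PGK2, LDHC, GAPDHS and ENO4 averaged under 1 TPM in each of these glands and are given no fold.

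None of the 9 genes was called between BMI and DSE (limma). With Ensembl transcripts alone ENO1, which then lacks the Iso-seq isoform that carried most of its testis level, was called lower in BMI testis, at -1.64 ± 0.39 (limma, adjusted p = 0.0138). In testis 0 of 9 were called against 4.77% of all genes tested, in epididymis 0 against 0.703%, in vesicular gland 0 against 0.477%, in prostate gland 0 against 0.598%, in bulbourethral gland 0 against 0.296%, and over the 5 glands together 0 against 0.387%. The test of whether the breed difference in testis departed from that in the other glands also called 0 of 9, against 3.86% of all genes. An unadjusted p below 0.05 was reached by 2 of the 9, PGK1 (-0.87) and ENO1 (-0.78) in prostate gland, where 13.1% of all genes reached it and the median of all genes was -0.23. It was also reached by LDHA by gene identifier in epididymis (7.15% of all genes), where it was 1.397 higher in BMI on the log2 scale (limma, adjusted p = 0.401), and at 0.36 without DSE epididymis replicate 1. In testis the differences of BMI from DSE were 0.80 for GAPDHS (95% interval -0.24 to 1.84), 0.89 for LDHA by name (-0.14 to 1.93), 0.68 for PGK2 (-0.17 to 1.53), 0.60 for LDHC (-0.17 to 1.37), -0.55 for GAPDH (-1.27 to 0.17) and -0.47 for PGK1 (-1.07 to 0.13), on the log2(TPM + 1) scale. The intervals still allow a 2-fold difference for each of these. Without DSE replicate 2 these differences were 0.26 for GAPDHS, 0.28 for LDHA, 0.09 for PGK2, -0.01 for LDHC, -0.22 for GAPDH and -0.10 for PGK1.

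As shares, GAPDHS in testis was 55.6% in BMI and 35.8% in DSE, with no overlap between the 3 libraries of each breed (exact permutation test, 2-sided, p = 0.1, the smallest that 3 against 3 can give; Benjamini-Hochberg adjusted 0.7 over 35 shares and glands). Without DSE testis replicate 2 the DSE mean was 47.4% ± 4.58 (SD, n = 2), with both values still below all 3 BMI libraries (exact permutation p = 0.1, the smallest that 3 against 2 can give). Chromosome 5 LDHB made up 24.8% of LDHA (by identifier) and LDHB in BMI testis and 39.5% in DSE testis, again with no overlap (exact permutation p = 0.1, adjusted 0.7), and 31.8% in DSE testis without replicate 2 (exact permutation p = 0.2). This share was also lower in BMI, without overlap, in epididymis (44.8% and 69.7%) and vesicular gland (78.2% and 85.2%; exact permutation p = 0.1 and adjusted 0.7 in each), and higher in BMI in prostate gland (88.9% and 85.9%, exact permutation p = 0.4) and bulbourethral gland (78.3% and 71.2%, exact permutation p = 0.2). The PGK2 share was 85.2% in BMI and 69.1% in DSE (exact permutation p = 0.3), and 83.4% in DSE without replicate 2. The LDHC share by name was 65.2% in BMI and 70.0% in DSE (exact permutation p = 0.3), and 69.7% in DSE without replicate 2. With LDHA by gene identifier the direction turned, to 62.0% in BMI and 59.6% in DSE (exact permutation p = 1), and without replicate 2 the DSE mean was again the higher, 65.8% (exact permutation p = 0.5).

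At the level of single transcripts, LDHA and ENO1 each had a testis isoform found by Iso-seq. PB.10248.16 of LDHA begins in its own first exon (chr2:40823248-40823597, minus strand) and was at 31.9, 129 and 159 TPM in testis (lowest, median and highest of 6), against at most 2.63 TPM in any other library. The difference of testis from the other glands was 6.05 ± 0.28 in log2(TPM + 1) (limma, adjusted p = 9.19e-16 over transcripts). Iso-seq held 190 of its full-length reads in BMI testis and 185 in DSE testis, and at most 3 in any other library. Its open reading frame, as annotated, starts 87 bases upstream of the usual start codon, 63 of them in the first exon and 24 in the second, and has 1086 coding bases in place of 999. The added stretch is shown with both start codons in capitals.
LDHA testis isoform, chr2:40822983-40823310, minus strand, intron removed: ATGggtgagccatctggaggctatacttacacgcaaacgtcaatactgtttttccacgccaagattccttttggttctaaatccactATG

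Outside testis the unnamed Ensembl transcript led LDHA, with 223 ± 114 TPM in epididymis, 56.4 ± 23.6 TPM in bulbourethral gland, 43.1 ± 15.97 TPM in prostate gland and 19.2 ± 10.4 TPM in vesicular gland (SD, n = 6 each), against 27.6 ± 13.5 TPM in testis. Of 6 LDHA transcripts tested, 1 was called higher and 1 lower in testis, where 28.4% of all transcripts tested were called higher and 9.54% lower. For ENO1, isoform PB.16208.8 was at 426 ± 48.6 TPM in testis (SD, n = 6) and at 5.62 to 66.9 TPM on average in the other glands, a difference of 4.26 ± 0.46 (limma, adjusted p = 1.18e-08). It had 63 full-length reads in BMI testis, 81 in DSE testis and at most 3 in any other library, and its coding length of 1305 bases is that of the Ensembl transcript. All ENO1 isoforms together had 0 to 4 full-length reads in each library outside testis, too few to show which isoform was used there. PB.16208.9, with the same start and 13 exons in place of 12, was at 84.6 ± 45.3 TPM in testis and led in epididymis (177 ± 77.4 TPM) and prostate gland (194 ± 87.2 TPM; SD, n = 6 each). Its full-length reads did not follow these levels: Iso-seq held 8 in BMI testis and 0 in each of the other 9 libraries.

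**Figure D4:**
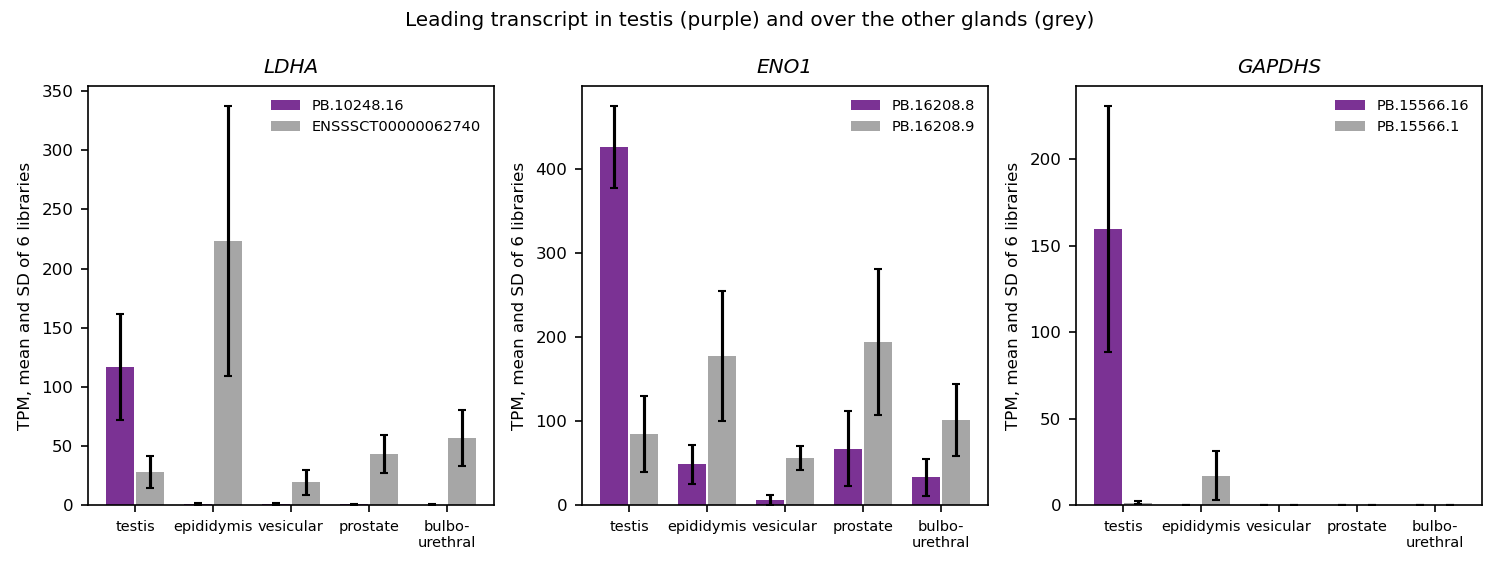
TPM of the leading testis transcript (purple) and the leading transcript over the other glands (grey) of LDHA, ENO1 and GAPDHS; bars are means of 6 libraries and whiskers 1 SD, cut at 0. The purple bars of LDHA and GAPDHS average 117 and 159.8 TPM in testis and at most 0.988 TPM elsewhere, and the purple ENO1 bar is 426 TPM in testis and at most 66.9 TPM elsewhere.

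Of the transcripts with TPM values, 8 of 13 of GAPDHS, 6 of 8 of LDHC, 3 of 5 of ENO4, 3 of 13 of ENO1, 1 of 6 of LDHA and the single one of PGK2 were called higher in testis, where 28.4% of all transcripts tested were. The filter of 1 TPM in 3 libraries left 9, 6, 3, 9, 6 and 1 of them, and a transcript that passed it through the testis libraries alone had to be higher there, so these counts are a description. None of the 4 GAPDH and 2 PGK1 transcripts tested was called by limma. The leading GAPDHS transcript, PB.15566.16, was at 46.9 to 247 TPM in testis and listed at 0 in all 24 other libraries, yet Iso-seq held only 1 full-length read of it in each testis library.

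Iso-seq gave its own shares, from 1 library per gland and breed, with exact Clopper-Pearson 95% intervals that cover counting error only. GAPDHS made up 39 of 52 reads in BMI testis (75.0%, 61.1 to 86.0%) and 40 of 55 in DSE testis (72.7%, 59.0 to 83.9%), above the RNA-seq share in both. The Iso-seq isoforms included no match to the leading GAPDH transcript, which averaged 388 of the 542 TPM of GAPDH in testis. The shares of Iso-seq and RNA-seq therefore do not cover the same GAPDH transcripts. LDHC made up 85 of 297 reads of LDHC and LDHA in BMI testis (28.6%, 23.5 to 34.1%) and 162 of 378 in DSE testis (42.9%, 37.8 to 48.0%), below the RNA-seq share. ENO4 made up 9 of 81 reads in BMI testis (11.11%, 5.21 to 20.05%) and 11 of 93 in DSE testis (11.8%, 6.05 to 20.2%). Chromosome 5 LDHB made up 3.64% of LDHA and LDHB reads in BMI testis and 2.26% in DSE testis, and from 4 of 54 reads (7.41%, DSE bulbourethral gland) to 34 of 85 reads (DSE prostate gland) in the other 8 libraries, below the RNA-seq share of the same gland in each. The isoform table holds only isoforms with at least 2 exons, so that PGK2 and the LDHB copy, each of 1 exon, cannot appear in it. In the accessory glands GAPDHS had 0 of 8 to 0 of 122 reads of the pair in the 6 libraries, which allows shares of up to 36.9 and 2.98%, and LDHC 1 read in all, from DSE bulbourethral gland.

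The 200 bases before 12 transcript starts of the 9 genes, with the chromosome 5 LDHB in place of the named copy, were searched on both strands. The motifs were the cyclic AMP response element TGACGTCA (CRE, bound by CREM and CREB factors), its core TGACG, the GC box GGGCGG, the TATA box TATAAA and, added after these sequences were seen, CCAAT. Of 34261 windows of 200 bases before Ensembl transcript starts, 1.09% held the CRE, 13.8% its core, 29.2% the GC box, 12.2% the TATA box and 27.5% CCAAT. Of the 12 windows 9 overlapped an annotated exon and 1 held a CRE, and the search covers letters only, not binding. This CRE ends 12 bases before a GAPDHS start (chr6:44969246) that 7 measured isoforms share, with 254 TPM between them in testis on average and at most 0.321 TPM each on average in another gland. The CRE lies within an exon of the Ensembl transcript, which starts upstream at chr6:44969139, and the isoform with the highest testis level, PB.15566.16, starts 1564 bases downstream of the shared start. Within the CRE the core matches on both strands.
GAPDHS shared testis start, CRE in capitals, chr6:44969216-44969245, plus strand: cgccgcctctgTGACGTCActaggctctgt
The 200 bases before PGK2 held none of the first 4 motifs and 3 CCAAT matches, 1 of them on the opposite strand (read as ATTGG), in capitals.
PGK2, chr7:43840893-43841092, minus strand: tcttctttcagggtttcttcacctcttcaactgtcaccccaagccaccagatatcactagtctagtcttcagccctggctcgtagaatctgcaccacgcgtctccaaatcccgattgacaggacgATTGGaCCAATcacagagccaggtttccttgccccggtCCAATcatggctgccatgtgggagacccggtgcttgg
The 200 bases before the LDHA testis isoform held 4 GC boxes (1 read as CCGCCC on the opposite strand) and 1 CCAAT, whereas the window before its Ensembl start held none of the 5 motifs.
LDHA testis start, chr2:40823598-40823797, minus strand: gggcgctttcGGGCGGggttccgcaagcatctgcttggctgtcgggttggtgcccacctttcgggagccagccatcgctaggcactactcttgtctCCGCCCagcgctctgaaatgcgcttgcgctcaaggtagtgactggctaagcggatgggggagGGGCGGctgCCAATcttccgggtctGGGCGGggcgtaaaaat
The window before LDHC held 1 CRE core, 1 GC box and 1 CCAAT, that before the ENO1 testis isoform 1 GC box, and those before ENO4 and the GAPDHS epididymis isoform none of the 5 motifs. Among the somatic starts, GAPDH had 1 CRE core, 3 GC boxes, 1 TATA box and 1 CCAAT, the ENO1 Ensembl start 1 CRE core, 5 GC boxes and 1 CCAAT, and PGK1 and chromosome 5 LDHB 2 GC boxes and 1 CCAAT each.

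The other glycolysis and lactate genes were read from a list of 53, of which 48 are named in the annotation and 44 passed the filter on low values. In testis 14 of 44 were called higher and 7 lower, against 34.5% and 12.7% of all genes, with a median difference of 0.50 beside 0.31 over all genes. The largest difference was that of PGAM2, the muscle phosphoglycerate mutase, which was at 86.6 to 293 TPM in testis (median 195) and 0.476 to 17.5 TPM in epididymis, and was 6.32 ± 0.54 higher in testis (limma, adjusted p = 7.23e-11). It was followed by the fructose carrier SLC2A5 (4.40 ± 0.49), the muscle enolase ENO3 (3.99 ± 0.58), the lactate and pyruvate carrier SLC16A7 (3.94 ± 0.25) and PFKFB2 (2.82 ± 0.20), which makes an activator of phosphofructokinase. PGAM2 and ENO3 are also made in skeletal muscle, whose 5 measured markers summed to 7.96 to 16.3 TPM in testis (median 12.4), against medians of 16.9 TPM in epididymis, 18.3 TPM in bulbourethral gland, 3.58 TPM in vesicular gland and 1.69 TPM in prostate gland.

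The genes called lower in testis were led by the aldolase ALDOC (-2.17 ± 0.31), the glucose transporter SLC2A1 (-1.95 ± 0.16), the phosphofructokinase PFKP (-1.76 ± 0.22), the hypoxia factor HIF1A (-1.59 ± 0.28) and PDK2 (-1.29 ± 0.15), a kinase that inhibits pyruvate dehydrogenase. Members of the same families, named here after their values were seen, were called higher: the phosphofructokinase PFKM (2.64 ± 0.23), the sugar transporter SLC2A8 (2.11 ± 0.23) and the aldolase ALDOA (1.03 ± 0.19), which was not called with size factors (0.78) or without DSE testis replicate 2 (0.85), BMI testis replicate 1 (0.99), DSE epididymis replicate 1 (0.98) or BMI prostate gland replicate 2 (0.99). By step, 2 of 4 glucose transporters were called higher and 2 lower, 5 of 13 genes of the phosphorylation and sugar steps higher and 2 lower, 3 of 8 genes of the later steps higher and 0 lower (1 lower with size factors), 1 of 3 lactate transport genes higher and 1 lower, 3 of 7 regulators higher and 1 lower, and 0 of 9 genes of pyruvate dehydrogenase and its kinases higher and 1 lower. Over all genes 34.5% were called higher and 12.7% lower, and the counts per step are too small to be set apart from these shares.

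In epididymis against the accessory glands 14 of the 44 were called higher and 0 lower, against 17.6% and 2.43% of all genes, among them HK2 (3.67 ± 0.25) and SLC2A5 (3.64 ± 0.51). With size factors 7 were called higher and 3 lower (9.02% and 5.15% of all genes), and HK2 (3.22) and SLC2A5 (3.33) were among those called higher. In vesicular gland 10 of the 44 were called lower than in prostate gland, against 11.3% of all genes, led by EMB (-2.95 ± 0.42), which escorts lactate carriers to the membrane, PFKM (-2.29 ± 0.29) and PFKP (-2.03 ± 0.28), and 3 higher, against 3.43%, which were PDK3 (2.86 ± 0.42), SLC2A8 (1.72 ± 0.29) and FBP2 (1.70 ± 0.49). Against bulbourethral gland 13 were lower, beside 23.6% of all genes, led by PDK1 (-2.85 ± 0.30), PFKM (-2.21 ± 0.29) and ENO3 (-1.82 ± 0.74), and 5 higher, beside 4.13%, led by PDK3 (2.68 ± 0.42), SLC2A8 (2.07 ± 0.29) and PFKFB3 (1.34 ± 0.46). PFKM and ENO3 are made in skeletal muscle, and the sum of 5 muscle markers was 0.959 to 1797 TPM in bulbourethral gland (median 18.3) and 0.311 to 17.8 TPM in vesicular gland. The highest muscle sums, 1797 TPM in DSE bulbourethral gland replicate 3 and 514 TPM in BMI replicate 1, stood in the same libraries as the highest ENO3 levels, 106.9 and 34.4 TPM, against 1.02 to 3.60 TPM in the other 4. Without the first of these ENO3 was at -0.96 (adjusted p = 0.202) and without the second at -1.24 (adjusted p = 0.159), and PFKM at -1.98 and -2.21 kept its call. The ENO3 call was also lost without any 1 of the 6 vesicular gland libraries (-1.88 to -1.76) and with size factors (-1.29), and that of PFKFB3 without BMI vesicular gland replicate 2 (0.93), DSE vesicular gland replicate 2 (1.15) or DSE bulbourethral gland replicate 2 (1.13). With size factors these counts turned to 4 lower and 6 higher against prostate gland (5.49% and 6.6% of all genes), and 4 lower and 10 higher against bulbourethral gland (7.62% and 8.82% of all genes). Between prostate and bulbourethral glands 3 were higher, ALDOC (1.86 ± 0.39), HIF1A (1.52 ± 0.36) and EMB (1.51 ± 0.42), and 3 lower, SLC16A7 (-1.46 ± 0.32), PDK1 (-1.35 ± 0.30) and HK2 (-1.12 ± 0.30), where 7.65% of all genes were called. With size factors 5 were higher and 2 lower there, where 6.69% of all genes were called, and HK2 was not called (-0.95).

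Between the breeds 1 of the 44 was called, in testis, where 4.77% of all genes were: FBP1, an enzyme of glucose synthesis. It was at 1.42, 2.11 and 2.05 TPM in BMI and 15.3, 40.7 and 3.58 TPM in DSE, without overlap, a difference of -2.36 ± 0.65 in log2(TPM + 1) (limma, adjusted p = 0.0242). Without DSE testis replicate 2 it was -1.60 (adjusted p = 0.279) and not called. The call was also lost, at differences of about the same size, without any 1 of the 3 BMI libraries (-2.43 to -2.25, adjusted p from 0.0577 to 0.087), with a pseudocount of 0.1 (-2.77, adjusted p = 0.0645) and with the 6 testis libraries alone (-2.36, adjusted p = 0.344). With size factors SLC16A7 was called as well, higher in BMI testis by 1.38 (adjusted p = 0.0279), against 1.35 (adjusted p = 0.0726) without them (4.92% of all genes were called with size factors), and in the departure of testis from the other glands SLC16A7 (1.46) and FBP1 (-2.28) were then called.

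**Figure D5:**
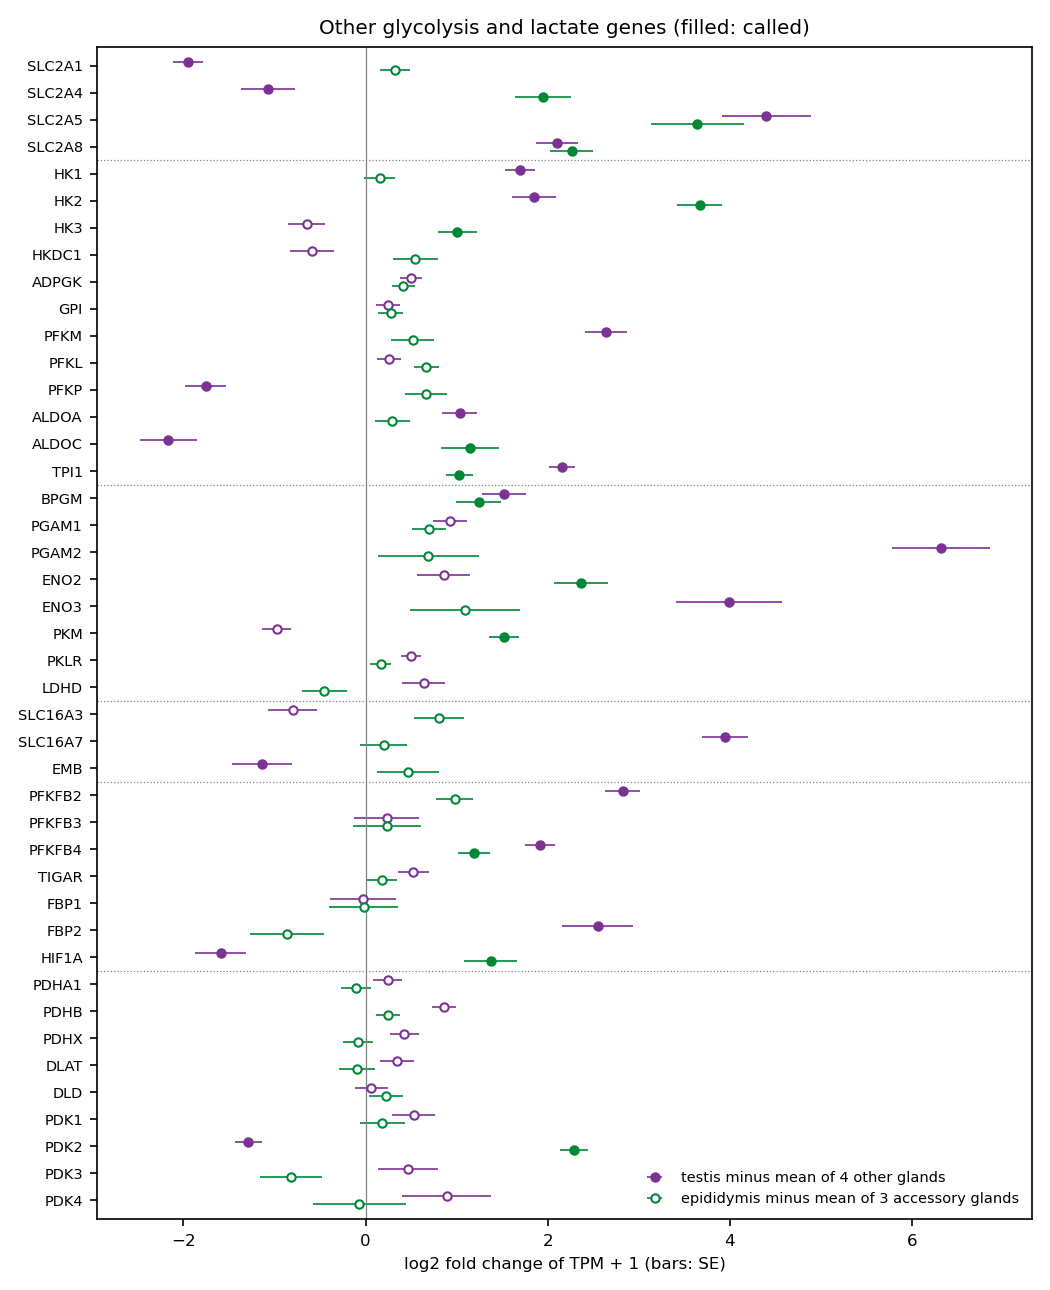
Log2 fold change of TPM + 1 for 43 of the 44 other glycolysis and lactate genes tested, in testis against the mean of the other 4 glands (purple) and epididymis against the mean of the 3 accessory glands (green); whiskers are SE, filled points are called, and dotted lines part the steps of the pathway. PGAM2 lies farthest right in testis at 6.32, and no green point is called below 0.

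As a description of likeness, Pearson's r of log2(TPM + 1) over the 30 libraries was taken between each of the 9 genes and 13880 named genes, where the libraries share gland, breed and depth, so that any gene high in testis alone gives a high r. PGK2 was closest to USP50, ACSBG2 and TSKS (r of 0.999 or more), LDHC to MROH2B, HTR3B and ZBBX (0.999 each), GAPDHS to DNAAF11, PAGE2B and RSPH6A (0.987 to 0.990) and ENO4 to RSPH6A, LYPD4 and ZC2HC1C (0.977 to 0.979). LDHA by name was closest to CCNB2 (0.965), CIB1 (0.958) and BUB1 (0.954). ENO1 was closest to 2 other glycolysis genes, ALDOA (0.947) and PGAM1 (0.945), and then to PLA2G7 (0.934). PGK1 was closest to UQCR11 (0.942), COX7B (0.928) and NDUFB6 (0.919), which are parts of the respiratory chain. GAPDH was closest to SLC25A4 (0.911), TP53I11 (0.908) and MAN2B1 (0.889), and the LDHB copy to KANK1 (0.937), VEGFB (0.928) and METRNL (0.921).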

How the data were processed

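RNA-seq of 30 libraries and Iso-seq of 10 were used, and the small RNA table was not used. The paper's methods describe mRNA purification on poly-T beads, whereas the labels name rRNA depletion. Per the submitters' processing notes the tools were GSNAP 2018-07-04, STAR 2.7.10a and Salmon 1.9.0, with build Sscrofa11.1 (susScr11). The authors estimated TPM per transcript against an annotation that joins Ensembl and Iso-seq transcripts, and deposited TPM only, so that the read depth behind each TPM value is unknown. The strand setting is not given in the sources used here. The deposited Iso-seq table holds the authors' full-length read count of each isoform with at least 2 exons.

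TPM was summed by gene name (unnamed genes by identifier; a median of 32.6% of TPM had no name), kept at 1 TPM or more in at least 3 libraries, and fitted as log2(TPM + 1) with limma 3.58.1 (R 4.3.3) over the 10 groups without a covariate, with Benjamini-Hochberg adjustment over all genes tested. Genes were called at adjusted p below 0.05 where the difference was also 1 or more on the log2 scale. Shares were compared by 2-sided exact permutation tests (scipy 1.17.1, Python 3.11.15). Sequences came from the RefSeq genome, where 97.3% of annotated introns had canonical ends, and 3144 transcripts off the chromosomes were left out of the search for shared 31-base words. Scripts were tested on simulated data. The genes and lists were chosen with earlier results of these data known. Named were the 9 genes, and of the other list the 5 largest calls in each direction in testis, the 3 largest in the other gland comparisons and every call between breeds, with the 3 genes most like each of the 9 and each leading transcript. A gene that this rule names is not reported here. The alternatives were another pseudocount (0.1), no filter, size factors (medians of ratios), Ensembl transcripts alone, Iso-seq counts, a replicate block, the 6 libraries of a gland alone, and each library left out. Summing by gene identifier, the chromosome 5 LDHB and the values without DSE testis replicate 2 were chosen after seeing the data.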

Additional observations from a re-analysis of the deposited data

Results flagged for a closer look

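Isoform PB.15566.11 joins GAPDHS with its neighbour TMEM147 in 1 transcript of 17 exons. It was outside the comparisons above, as its reads belong to no single gene, and it stood above the other glands in testis: 79 full-length reads in BMI testis and 109 in DSE testis, against 1 in BMI epididymis and 0 in the other 7 libraries. GAPDHS alone had 39 reads in BMI testis and 40 in DSE testis. With 1 Iso-seq library per gland and breed there is no replicate check of these counts.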

How the results depend on the processing

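Among the 9 genes, 7 were called in testis with every library left out in turn, and 0 between breeds. With Ensembl transcripts alone 4 were called in testis (ENO1 turned to -0.54) and 1 in epididymis, and 1, ENO1, between the breeds in testis. Size factors left 2 in epididymis, 2 between vesicular and prostate glands (LDHA turned to 0.11), 0 between vesicular and bulbourethral glands (GAPDH turned to 0.11) and 1, ENO1, between prostate and bulbourethral glands. A pseudocount of 0.1 called 1 in this last pair, ENO4. It added calls of PGK2 and LDHC in epididymis, of ENO4 between vesicular and prostate glands and of LDHA between vesicular and bulbourethral glands. PGK1 between prostate and bulbourethral glands turned to -0.017 without DSE bulbourethral gland replicate 1 and -0.028 without BMI bulbourethral gland replicate 1, in a range up to 0.19. Leaving out 1 library gave 3 to 5 called in epididymis, 4 between vesicular and prostate glands, 1 to 4 between vesicular and bulbourethral glands and 0 to 1 between prostate and bulbourethral glands. Over all genes, Ensembl transcripts alone called 5567 in testis, 2503 in epididymis, 1720 between vesicular and prostate glands, 3517 between vesicular and bulbourethral glands, and between breeds 378 for testis, 88 for epididymis, 25 and 57 for vesicular and prostate glands and 263 for the departure of testis. A pseudocount of 0.1 called 6345 in epididymis, 4610 between vesicular and prostate glands, and between breeds 540 in testis, 158 in vesicular gland, 308 over the glands and 405 for the departure of testis. Size factors called 3274 between vesicular and bulbourethral glands and 160 between breeds in vesicular gland. The 6 libraries of a gland alone called between breeds 39 genes for testis, 0 for epididymis, and 2, 17 and 5 for vesicular, prostate and bulbourethral glands. Without 1 library the counts were 9179 to 9749 in testis, 3757 to 4680 in epididymis, 2617 to 3444, 5087 to 6081 and 1411 to 1581 for the accessory pairs in the order above, and between breeds 535 (without DSE testis replicate 2) to 1599 (without DSE testis replicate 3) in testis, 81 to 288 for epididymis, 54 to 106, 66 to 110 and 39 to 67 for vesicular, prostate and bulbourethral glands, 75 to 92 over the glands and 493 to 1416 for the departure of testis. The GAPDHS share with Ensembl transcripts alone was 0.221% in testis, 0.0171% in epididymis and 0.0196% in accessory glands, and by Iso-seq 73.8% in testis and 0% in accessory glands. The Iso-seq isoforms included no match to the leading GAPDH transcript. The LDHC share in testis was 36.6% by Iso-seq, 60.8% with LDHA by identifier and 51.3% with chromosome 5 LDHB added. The ENO4 share with Ensembl transcripts alone was 9.81% in testis, 1.39% in epididymis and 1.03% in accessory glands, and by Iso-seq 11.5% in testis, 20% (of 5 reads) in epididymis and 0% in accessory glands. The accessory gland libraries held only 0 to 4 reads of both genes each, too few to bound that share closely. Chromosome 5 LDHB gave 32.2% in testis. Without 1 library the shares in testis, epididymis and accessory glands were 73.5 to 84.5%, 0.192 to 0.706% and 0% for PGK2, 42.6 to 52.3%, 1.30 to 2.06% and 0.0967 to 0.130% for GAPDHS, 65.8 to 69.4%, 0.908 to 2.07% and 0.254 to 1.80% for LDHC, 1.66 to 2.15%, 0.570 to 0.692% and 0.328 to 0.370% for ENO4, and 4.41 to 8.91%, 47.4 to 58.6% and 80.0 to 81.5% for LDHB by name. The causes of these shifts were not tested. The replicate numbers were not taken to pair the libraries, as not every same-numbered pair correlated above 0.1: 20 of 60 pairs of glands within a breed did (18 of 120 with other numbers; medians 0.047 and -0.022) and 4 of 15 between breeds (10 of 30). With a replicate block 7 of the 9 genes were called in testis and 9419 of all genes, and no call of the 9 changed in any comparison. TPM files carry no read depth, so that low levels such as those of LDHC outside testis have no counting interval.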
